A study of Mus musculus with 4 samples.

Results

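The 44 genes described here encode proteins that copy DNA and carry out mitosis: the licensing factors and helicase subunits that load at replication origins, the replisome, the enzymes that supply deoxynucleotides, the cyclins, the mitotic kinases and spindle checkpoint, and motor, centromere and chromosome proteins, with the transcription factors E2f1 and Foxm1. They were listed by name. Each RefSeq entry of the table was matched to its mouse symbol, and the entry with the highest mean level was used for each symbol. All 44 were found, and all 44 were among the 14386 genes and unnamed entries that reached 1 RPKM (reads scaled to the length of the transcript in kilobases and to the size of the library) in at least 1 library. For 9 members the table held more than 1 entry, and the log2 ratios of those entries differed by at most 0.06.

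The study sequenced mRNA from mouse embryonic fibroblasts (MEFs), connective tissue cells grown in culture from embryos, that were either wild type (Mll1+/+) or labelled as lacking Mll1 (Mll1-/-). Mll1, now named Kmt2a, encodes a methyltransferase for histone H3 lysine 4. Cells of each genotype were cultured in DMEM with serum and received TNFa (tumour necrosis factor alpha, called TNF below, 10 ng/ml, a dose whose unit one label field writes differently) or a control without it, for 4 hr. Every group is 1 library made from 3 pooled treatments, so no spread between replicates exists, no p-value is given, and every difference below describes 4 libraries. The labels read here do not give the number of embryos or clones behind each genotype, the passage of the cells or how densely they were grown.

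Proliferating cells license each origin once per cycle by loading the Mcm2 to Mcm7 ring with the help of Cdc6 and Cdt1, and fire it in S phase when Cdc45 and the GINS complex join the ring to form the active helicase. Genes of this phase are classic targets of E2F factors, which the retinoblastoma proteins hold in check. Genes of mitosis peak later under B-Myb and Foxm1 and are repressed in resting cells by the DREAM complex, which binds CHR elements in their promoters. Mll family complexes contain Hcfc1, a protein that also binds E2F factors.

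Recovered sequencing depth, the library size implied by the steps of the RPKM values, was between 19306506 and 27977248 reads per library. The reads of all entries summed to between 1.667 and 1.768 times that size, so the reads of an entry need not be its own alone. The targeted gene did not follow the labels: Kmt2a stood at 1.85 RPKM in the wild-type control library, 2.11 in wild type with TNF, 2.02 in the Mll1-/- control and 1.66 in Mll1-/- with TNF. These values cover the whole transcript, and the labels do not say which part of the gene is missing, so they neither check nor contradict a deletion of part of it, and the genotype is used below only as the name on the library. Of 12 fibroblast markers 10 were found, with summed levels of 5579 and 5122 RPKM in wild type and 4298 and 5182 in the libraries labelled Mll1-/-, but the single markers differed. Without TNF 6 of the 10 were 2-fold higher and 1 lower (S100a4) in the library labelled Mll1-/-, and with TNF 6 were higher and 0 lower, with median log2 ratios of 1.60 and 1.49. Of all genes compared 7.11% were higher and 7.99% lower without TNF, and 6.71% and 4.5% with TNF. Once a trend with transcript length, described below, was removed, 6 markers were higher and 0 lower without TNF. In wild type 3 of the 10 were under 1 RPKM in both libraries, and in the libraries labelled Mll1-/- 0 were. Dcn was listed at 0 in both wild-type libraries and at 9.16 and 15.2 RPKM in the others, and Col3a1 stood at 0.531 and 0.296 RPKM against 28.1 and 23.5. Of the 6 epithelial and 5 endothelial markers found 0 reached 1 RPKM, with summed levels of 0.765 to 1.04 and 0.178 to 0.909 RPKM, and of 4 leukocyte markers 1 did (Cd14), with summed levels of 23.5 and 25.8 RPKM in wild type and 9.56 and 12.2 in the others. Of 5 neural markers found, Nes, Map2 and Tubb3 were higher in the libraries labelled Mll1-/-, with a summed neural level of 104 and 91.9 RPKM against 14.4 and 14.1, while Sox10 and Olig2 were at most 0.0842 RPKM in every library. Over 10 housekeeping genes the median log2 ratio between the genotypes was -0.20 without and -0.14 with TNF. Of these, 1 gene was 2-fold lower without TNF (Ppia, -1.01), and 0 were with the length trend removed. The housekeeping median with that trend removed lay further from 0, at -0.35 without and -0.15 with TNF. The part of these marker differences in the member values below was not tested.

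All 44 members were expressed at substantial levels in all 4 libraries. The lowest member stood at 10.3, 10.1, 11.3 and 10.1 RPKM in wild type control, wild type with TNF, Mll1-/- control and Mll1-/- with TNF, against medians over all genes compared of 11.3, 11.3, 11.2 and 11.3 RPKM. The median member stood at 44.2, 42.6, 52.3 and 53.7 RPKM in the same order, and Pcna was highest in each. Summed over the 44 genes the level was 3157, 3001, 3175 and 3336 RPKM. In mixed RNA of this kind, a different share of cycling cells and a different amount of RNA per cycling cell cannot be told apart.

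**Figure D1:**
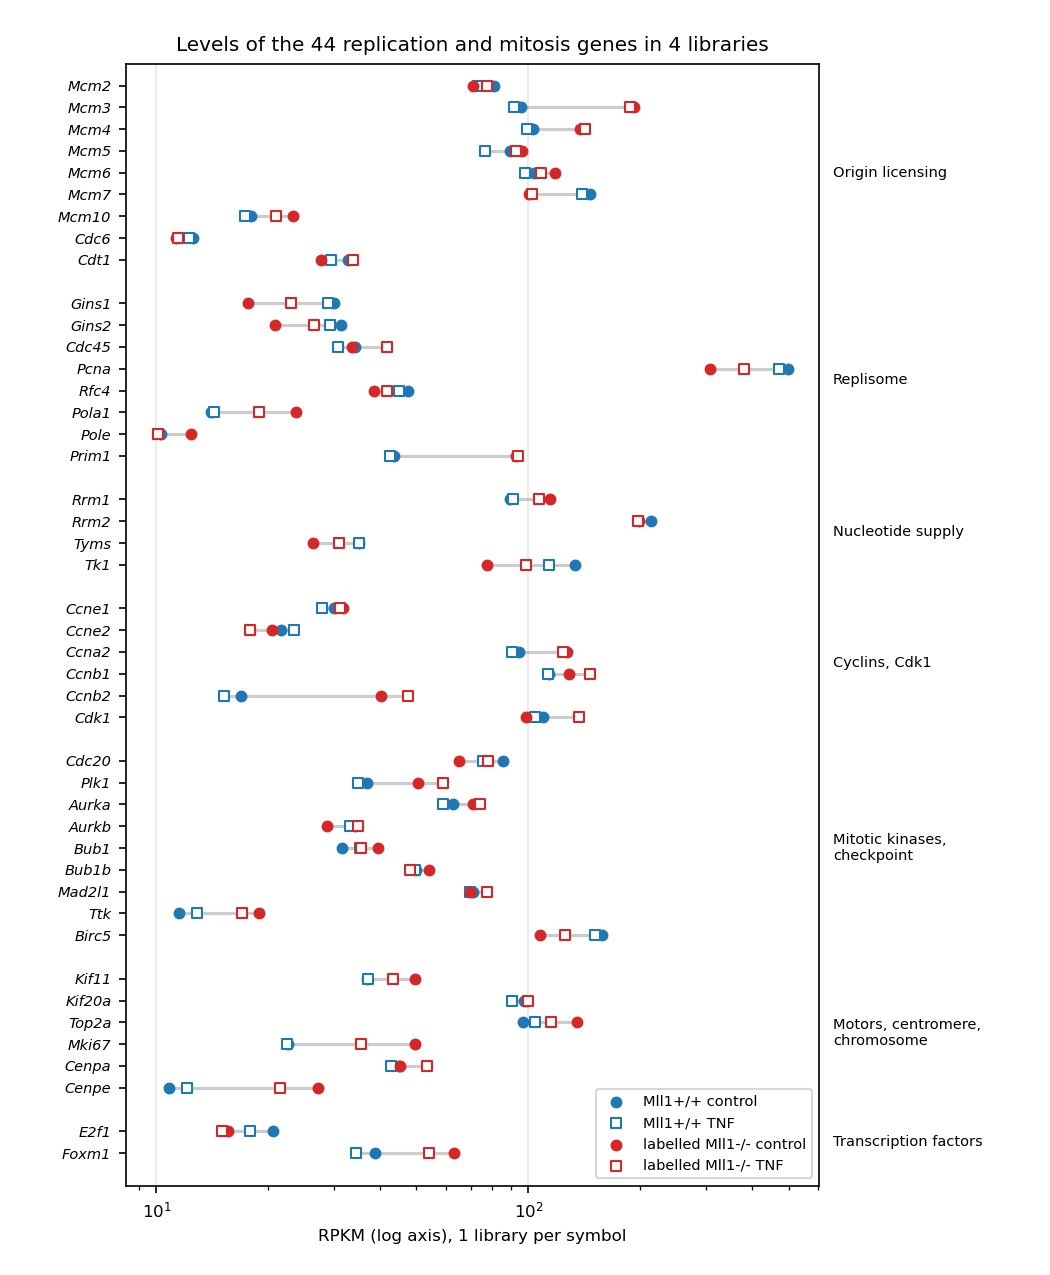
Level of each of the 44 genes in RPKM on a log axis, by role, with 1 point per library (blue, Mll1+/+; red, labelled Mll1-/-; filled circles, control; open squares, TNF). Most genes keep their 4 points close together, while for Mcm3, Prim1 and Ccnb2 both red points lie well to the right of both blue points.

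Between the genotypes, a minority of the 44 genes differed by much, and the 2-fold differences all lay in one direction. Without TNF, 5 members were at least 2-fold higher in the library labelled Mll1-/- (Mcm3, Prim1, Ccnb2, Mki67 and Cenpe), where 7.11% of all genes compared were, and 0 were 2-fold lower, where 7.99% of all genes were. With TNF, 3 members were 2-fold higher (Mcm3, Prim1 and Ccnb2; background 6.71%) and 0 were 2-fold lower (background 4.5%). A share of 5 or 3 in 44 is not far from the background upward. At 1.5-fold, 8 members were higher (background 14.3%) and 3 were lower (background 19.5%) without TNF, and 7 were higher (background 12.3%) and 0 lower (background 11.6%) with TNF.

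The middle of the group was shifted little. The median log2 ratio of the 44, computed on RPKM + 0.5 here and throughout, was 0.09 without TNF and 0.15 with TNF, against -0.07 and -0.05 for all genes compared. Without TNF 25 of the 44 members lay above 0 and with TNF 31 did, where 45.0% and 45.1% of all genes lay above 0. In 23 members both libraries labelled Mll1-/- were higher than both wild-type libraries (32.8% of all genes), and in 11 members both were lower (42.7% of all genes). Counting error was small against these differences: the 95% counting interval of the read ratio (exact binomial, Clopper-Pearson) excluded 1 for 38 of the 44 without TNF and for 36 with TNF, though it did so for 76.2% and 69.6% of all genes as well, and it measures nothing but the sampling of reads. This interval narrows as reads rise, and the median member stood at 44.2 RPKM in the wild-type control against 11.3 for all genes. Shares of members and of all genes whose interval excludes 1 are therefore not alike, here and below. The shares of 32.8% and 42.7% of all genes apply wherever groups are said below not to overlap. Each such group is 1 control and 1 TNF library, which are not replicates.

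**Figure D2:**
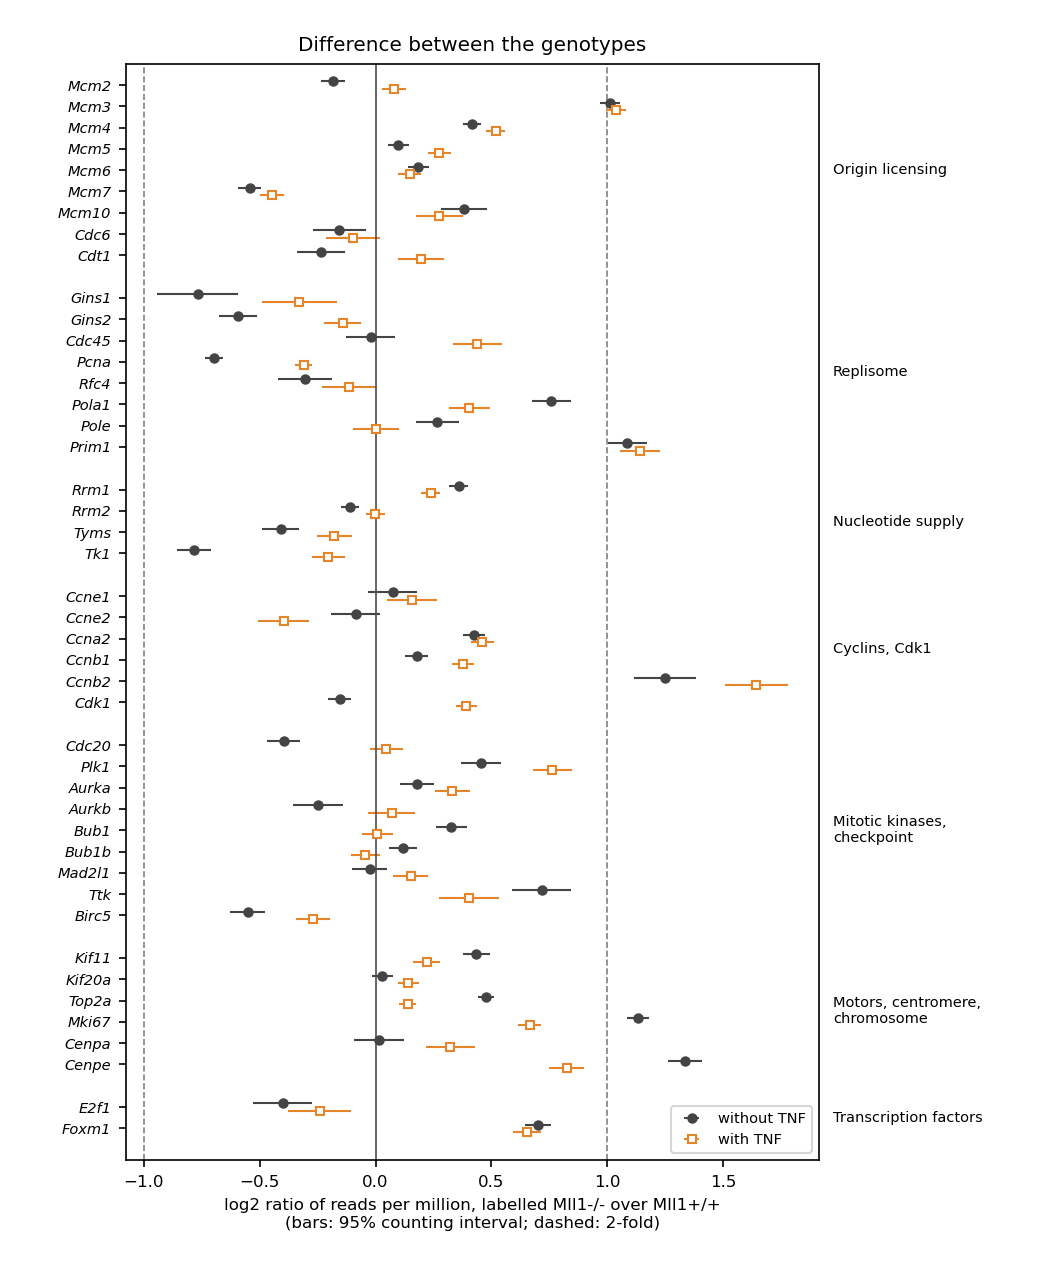
Log2 ratio of reads scaled to library size, labelled Mll1-/- over Mll1+/+, for each of the 44 genes without TNF (filled circles) and with TNF (open squares), with 95% counting intervals as bars and 2-fold marked by dashed lines. Mcm3, Prim1 and Ccnb2 lie past 2-fold in both pairs of libraries, Mki67 and Cenpe only in the pair without TNF, and no gene lies past 2-fold to the left.

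The 3 members that were 2-fold apart in both pairs come from different steps of the cycle, and their promoters are shown with that of Ccnb1, the close relative of Ccnb2 that was not. The sequences are the 150 bases before the annotated start, from RefSeq on GRCm38.p6, in the direction of the gene, with CCAAT or its complement ATTGG in capitals. The windows are chr1:20820313-20820462 on the minus strand for Mcm3, chr10:128015065-128015214 on the plus strand for Prim1, chr9:70421555-70421704 on the minus strand for Ccnb2 and chr13:100786487-100786636 on the minus strand for Ccnb1.
Mcm3: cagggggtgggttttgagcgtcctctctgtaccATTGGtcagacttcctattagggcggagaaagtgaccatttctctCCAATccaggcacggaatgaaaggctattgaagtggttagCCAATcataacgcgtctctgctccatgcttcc
Prim1: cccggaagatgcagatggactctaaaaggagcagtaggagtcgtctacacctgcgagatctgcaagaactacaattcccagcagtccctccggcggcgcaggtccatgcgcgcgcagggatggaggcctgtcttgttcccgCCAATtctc
Ccnb2: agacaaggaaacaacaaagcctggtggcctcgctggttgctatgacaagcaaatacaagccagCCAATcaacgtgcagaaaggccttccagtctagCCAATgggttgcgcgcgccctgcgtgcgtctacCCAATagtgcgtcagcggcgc
Ccnb1: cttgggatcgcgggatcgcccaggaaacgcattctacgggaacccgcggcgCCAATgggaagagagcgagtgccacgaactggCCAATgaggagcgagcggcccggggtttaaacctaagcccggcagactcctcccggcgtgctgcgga
Ccnb2 has 3 CCAAT boxes, at 87, 54 and 21 bases before the start, and Ccnb1 has 2, at 99 and 67. Mcm3 has 3, at 117, 72 and 32 bases before the start, and Prim1 has 1, at 9.

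Among the licensing factors, Mcm3 stood apart from the other subunits of its own ring. Mcm3, one of the 6 subunits of the replicative helicase core, stood at 95.3 RPKM in the wild-type control library, 91.3 in wild type with TNF, 192 in the Mll1-/- control and 188 in Mll1-/- with TNF. Both libraries labelled Mll1-/- were therefore about 2-fold above both wild-type libraries, with read ratios of 2.02 (counting interval 1.96 to 2.08) without TNF and 2.05 (1.99 to 2.12) with TNF. Mcm3 lay at the 2-fold line: its log2 ratio without TNF, 1.01, became 0.95 once the trend with transcript length described below was removed. Mcm7, another subunit of the ring, went the other way, at 147 and 140 RPKM in wild type and 101 and 102 in the libraries labelled Mll1-/-, for log2 ratios of -0.54 and -0.45. Its groups did not overlap either.

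The other 4 ring subunits lay between these. Mcm4 stood at 103 and 98.9 RPKM in wild type and 137 and 142 in the libraries labelled Mll1-/- (log2 0.41 and 0.52). Mcm2, Mcm5 and Mcm6 had log2 ratios between -0.18 and 0.18 without TNF and between 0.08 and 0.27 with TNF. Cdt1, which loads the ring, was 32.7 and 29.5 RPKM in wild type and 27.8 and 33.8 in the libraries labelled Mll1-/-, so its groups overlapped and its log2 ratio changed sign from -0.23 to 0.19. Cdc6, the ATPase that loads the ring with Cdt1, differed little (-0.15 and -0.09). Mcm10, which helps to activate the loaded helicase, was higher in both pairs (0.37 and 0.27). Over the 9 licensing genes the median was 0.10 without TNF, or -0.03 with the length trend removed, and 0.19 with TNF, or 0.16. When scaling ignored the 20 most abundant genes it was 0.40 and 0.30, where the median of all genes was 0.21 and 0.05. The medians of the replisome and nucleotide supply genes below, which are under 0, turn to between 0.02 and 0.13 under that scaling, at or below those of all genes.

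In the replisome, the primase subunit Prim1 was the 1 gene past 2-fold. Prim1, the catalytic subunit that makes the RNA primers for DNA synthesis, stood at 43.6 and 42.6 RPKM in the wild-type libraries (control, then TNF) and 92.6 and 93.9 in those labelled Mll1-/-. The read ratios were 2.12 (counting interval 2.002 to 2.25) and 2.21 (2.08 to 2.34), and both libraries of each genotype lay close together. Pola1, the polymerase subunit that works in one complex with Prim1, stood at 14.03 and 14.27 RPKM in wild type and 23.7 and 18.9 in the others, with log2 ratios of 0.74 and 0.39. Both partners were higher without overlap, as 32.8% of all genes were.

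Several other replisome genes were lower in the library labelled Mll1-/- without TNF. Pcna, the sliding clamp that holds polymerases on DNA, stood at 497 and 472 RPKM in wild type and 307 and 381 in the libraries labelled Mll1-/- (-0.70 and -0.31). Gins1 and Gins2, subunits of the GINS complex, were at -0.75 and -0.58 without TNF but at -0.32 and -0.14 with TNF. For Gins1 the 4 levels were 30.0, 28.9, 17.7 and 23.0 RPKM in the order used so far. Rfc4, a subunit of the clamp loader, was at -0.30 and -0.11. Cdc45, the helicase activator, was at -0.02 and 0.43, and Pole, the leading-strand polymerase, at 0.26 and 0.00. The median over the 8 replisome genes was -0.16 without TNF and -0.05 with TNF. With the length trend removed both were -0.07, where the median of all genes was -0.07 without TNF and -0.05 with TNF. Without TNF, Rfc4 was then at -0.08, Pcna at -0.48, Gins1 at -0.54 and Gins2 at -0.77.

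Of the 4 genes of deoxynucleotide supply, 1 was past 1.5-fold lower without TNF, where 19.5% of all genes were, and it was at -0.58, just under 1.5-fold, with the length trend removed. This gene, Tk1, the thymidine salvage kinase of S phase, stood at 133 and 113 RPKM in wild type and 77.5 and 98.3 in the libraries labelled Mll1-/-, which gave log2 ratios of -0.78 and -0.20. Its groups did not overlap, and the lowest of the 4 values was that of the Mll1-/- control library. Tyms, which makes thymidylate, stood at 35.0, 34.9, 26.4 and 30.9 RPKM (-0.40 and -0.17), again lower without overlap. Rrm1 and Rrm2 encode the large and the small subunit of ribonucleotide reductase. Rrm1 stood at 89.1, 90.7, 114 and 107 RPKM (0.36 and 0.24), and Rrm2 at 214, 197, 198 and 197 RPKM. For Rrm2 only the wild-type control library was apart from the rest, and by little (log2 -0.11 without TNF).

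Ccnb2 had the largest ratio of the 44 genes with TNF. Ccnb2, a mitotic cyclin that activates Cdk1, stood at 16.9 RPKM in the wild-type control, 15.2 in wild type with TNF, 40.2 in the Mll1-/- control and 47.6 in Mll1-/- with TNF. Both libraries labelled Mll1-/- were well above both wild-type libraries, with read ratios of 2.38 (counting interval 2.17 to 2.61) and 3.12 (2.84 to 3.43). Ccnb1, the more abundant cyclin of the same class, stood at 114, 113, 129 and 147 RPKM, for log2 ratios of 0.18 and 0.37 against 1.23 and 1.61 for Ccnb2.

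The other cyclins and their kinase were closer to each other. Ccna2, the cyclin of S phase and early mitosis, stood at 94.5 and 90.2 RPKM in wild type and 127 and 124 in the libraries labelled Mll1-/- (0.42 and 0.46), again without overlap. Cdk1, the kinase of mitosis, stood at 110, 104, 98.5 and 137 RPKM, so that the libraries labelled Mll1-/- enclosed those of wild type and the ratio turned from -0.15 to 0.39. Ccne1 and Ccne2, cyclins of entry into S phase, did not move together. Ccne1 was at 0.07 and 0.16, while Ccne2, at 21.7, 23.5, 20.4 and 17.8 RPKM, was at -0.08 and -0.39. The median over these 6 genes was 0.13 without TNF and 0.38 with TNF.

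None of the 9 mitotic kinase and checkpoint genes was past 2-fold in either pair. Plk1, a kinase of mitotic entry, stood at 36.8 and 34.8 RPKM in wild type and 50.5 and 59.0 in the libraries labelled Mll1-/- (0.45 and 0.75). Ttk, the kinase that starts spindle checkpoint signalling, stood at 11.5, 12.8, 18.9 and 17.0 RPKM (0.69 and 0.39). Both were higher without overlap. Birc5, the survivin subunit of the chromosomal passenger complex, was the lowest of the role, with 158 and 151 RPKM in wild type and 107 and 125 in the others (-0.55 and -0.27). With the length trend removed Birc5 was at -0.27 without TNF, and Cdc20, at -0.29, was lowest.

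Cdc20, which activates the anaphase-promoting complex, stood at 85.5, 75.5, 65.0 and 77.9 RPKM. Its groups overlapped, and its ratio was -0.39 without TNF and 0.05 with TNF. The remaining 5 genes of the role, the kinases Aurka, Aurkb and Bub1, the checkpoint protein Bub1b and the checkpoint inhibitor Mad2l1, had ratios between -0.24 (Aurkb) and 0.32 (Bub1) without TNF and between -0.04 (Bub1b) and 0.33 (Aurka) with TNF. The role's median was 0.12 without TNF and 0.07 with TNF.

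The 6 genes for motors, centromere and chromosome structure all lay above 0 in both pairs, or 5 of 6 without TNF once the trend with transcript length was removed. Cenpe, a kinesin that moves chromosomes to the spindle equator, stood at 10.8 RPKM in the wild-type control, 12.1 in wild type with TNF, 27.2 in the Mll1-/- control and 21.5 in Mll1-/- with TNF. Mki67, the proliferation antigen that coats mitotic chromosomes, stood at 22.5, 22.4, 49.4 and 35.5 RPKM. For both genes the Mll1-/- control library was highest and the Mll1-/- library with TNF was next, so the log2 ratio dropped from 1.30 to 0.80 for Cenpe and from 1.12 to 0.65 for Mki67 between the pair without and the pair with TNF. With the trend in transcript length removed, the values without TNF were 0.97 for Cenpe and 0.76 for Mki67, both under 2-fold.

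Top2a, which untangles replicated DNA, and Kif11, the motor that separates the spindle poles, showed smaller differences of the same kind. Top2a stood at 96.9, 104, 135 and 115 RPKM (0.48 and 0.14), and Kif11 at 36.7, 37.1, 49.6 and 43.2 RPKM (0.43 and 0.22). Kif20a, a kinesin of cytokinesis, and Cenpa, the histone H3 variant that marks centromeres, were the lowest of the role without TNF. Kif20a stood at 97.4, 90.4, 99.4 and 99.6 RPKM (0.03 and 0.14), and Cenpa at 44.8, 42.6, 45.3 and 53.3 RPKM (0.02 and 0.32). The role's median was 0.45 without TNF and 0.27 with TNF, or 0.23 and 0.26 with the length trend removed.

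The 2 transcription factors differed in opposite directions. Foxm1, which activates genes of mitosis, stood at 38.7 and 34.4 RPKM in wild type and 63.0 and 54.2 in the libraries labelled Mll1-/-, with ratios of 0.69 and 0.65. E2f1, an activator of S phase genes, stood at 20.6 and 17.8 RPKM in wild type and 15.6 and 15.1 in the others, with ratios of -0.39 and -0.23. Neither gene's groups overlapped.

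With TNF in wild-type cells, 0 of the 44 genes were 2-fold higher (background 0.521%) or 2-fold lower (background 0.0556%), and 0 were 1.5-fold higher (background 1.61%) or lower (background 0.577%, or 2.18% in either direction). The values were nevertheless mostly on one side: 36 of the 44 lay below 0 and 8 above, where 45.0% of all genes lay above 0, and the median was -0.06 against -0.02 for all genes. This was not particular to the members: of the 10 housekeeping genes 2 lay above 0, with a median of -0.07. The 3 lowest members were Tk1 (-0.23), Mcm5 (-0.22) and E2f1 (-0.20), and the 3 highest were Bub1 (0.17), Cenpe (0.16) and Ttk (0.15). Tk1 thus went from 133 to 113 RPKM, a read ratio of 0.849 (counting interval 0.816 to 0.884). All 9 licensing genes lay between -0.22 and -0.04. The counting interval of the read ratio excluded 1 for 25 of the 44 genes, where it did for 35.7% of all genes, whose reads were mostly fewer and intervals wider.

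In the cells labelled Mll1-/-, 0 of the 44 genes were 2-fold higher (background 0.688%) or lower (background 0.16%) with TNF, and 0 were 1.5-fold higher (background 5.01%) or lower (background 0.945%, or 5.96% in either direction). The members spread more widely than in wild type, with a standard deviation over the 44 genes of 0.22 against 0.09. With the length trend removed it was 0.16 against 0.09. All genes spread more widely as well: their central 95% ran from -0.45 to 0.73, against -0.37 to 0.45 in wild type. Of the 44 members 24 lay above 0, where 52.8% of all genes did. The median was 0.02, the same as that of all genes. Cdk1 was highest, going from 98.5 to 137 RPKM (log2 0.47, read ratio 1.39, counting interval 1.34 to 1.44), followed by Gins1 (0.37) and Gins2 (0.34), with Tk1 at 0.34 as well. Mki67 was lowest, going from 49.4 to 35.5 RPKM (log2 -0.47, read ratio 0.719, counting interval 0.697 to 0.741), followed by Cenpe (-0.34) and Pola1 (-0.32). The counting interval excluded 1 for 32 of the 44, where it did for 48.8% of all genes, again with mostly wider intervals.

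The difference between the log2 TNF ratios in the cells labelled Mll1-/- and in wild type ranged from -0.50 (Cenpe) to 0.57 (Tk1), and 0 members were past 2-fold in either direction (background 1.18%). At 1.5-fold, 0 were higher (background 6.27%) and 0 lower (background 2.34%, or 8.61% in either direction). This difference was above 0 for 30 of the 44 genes, where 53.2% of all genes lay above 0, with a median of 0.11 against 0.03 for all genes. Of the 10 housekeeping genes it was above 0 for 8, with a median of 0.15. Cdk1 (0.54) and Cdc45 (0.45) came after Tk1, and Mki67 (-0.46) and Pola1 (-0.35) after Cenpe. The difference uses the same 4 libraries as the genotype ratios, so the shift of Cenpe and Mki67 under 2-fold with TNF and their low values here are 1 observation. When scaling ignored the 20 most abundant genes, 17 rather than 30 members lay above 0 and the median was -0.078, but the median of all genes moved with it, to -0.15.

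In the comparisons that use the Mll1-/- control library, the members' values ran with transcript length. The 11 shortest members, of 977 to 1793 bases, had a median of -0.30 for the genotype ratio without TNF and 0.05 with TNF, and the 11 longest, of 3997 to 10098 bases, had medians of 0.43 and 0.22. In the cells labelled Mll1-/- all 11 of the shortest members lay above 0 with TNF (median 0.24), and 9 of the 11 longest lay below 0 (median -0.22). In wild type, all 11 of the shortest lay below 0 (median -0.07). Over the 44 members, Spearman's rho with length was 0.48 for the genotype ratio without TNF, 0.17 with TNF, 0.47 for TNF in wild type and -0.71 for TNF in the cells labelled Mll1-/-. Over all genes compared the same values were 0.34, 0.12, 0.11 and -0.51. These describe genes that share 4 libraries and are not independent points.

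In the comparisons that use the Mll1-/- control library, the trend was common to all genes, not to the members alone. Over deciles of transcript length, from the shortest to the longest, the median of all genes went from -0.53 to 0.25 for the genotype ratio without TNF and from 0.31 to -0.20 for TNF in the cells labelled Mll1-/-. For TNF in wild type the decile median was -0.01 for the shortest and 0.03 for the longest genes. There rho was 0.11 over all genes against 0.47 over the members. After removal of the length trend, 2 members rather than 5 were past 2-fold without TNF, Prim1 (1.25) and Ccnb2 (1.39), and the same 3 were with TNF. At 1.5-fold, 6 members rather than 8 were higher without TNF, without Pola1 and Foxm1. Of the 3 that were 1.5-fold lower before (Tk1, Gins1 and Pcna) 0 were after removal, and Gins2 (-0.77), whose transcript measured 4244 bases, was. Cdk1 with TNF in the cells labelled Mll1-/- was 0.51 after removal, and Mki67 was -0.24. RNA quality was not among the measurements, and its part in the trend was not tested.

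**Figure D3:**
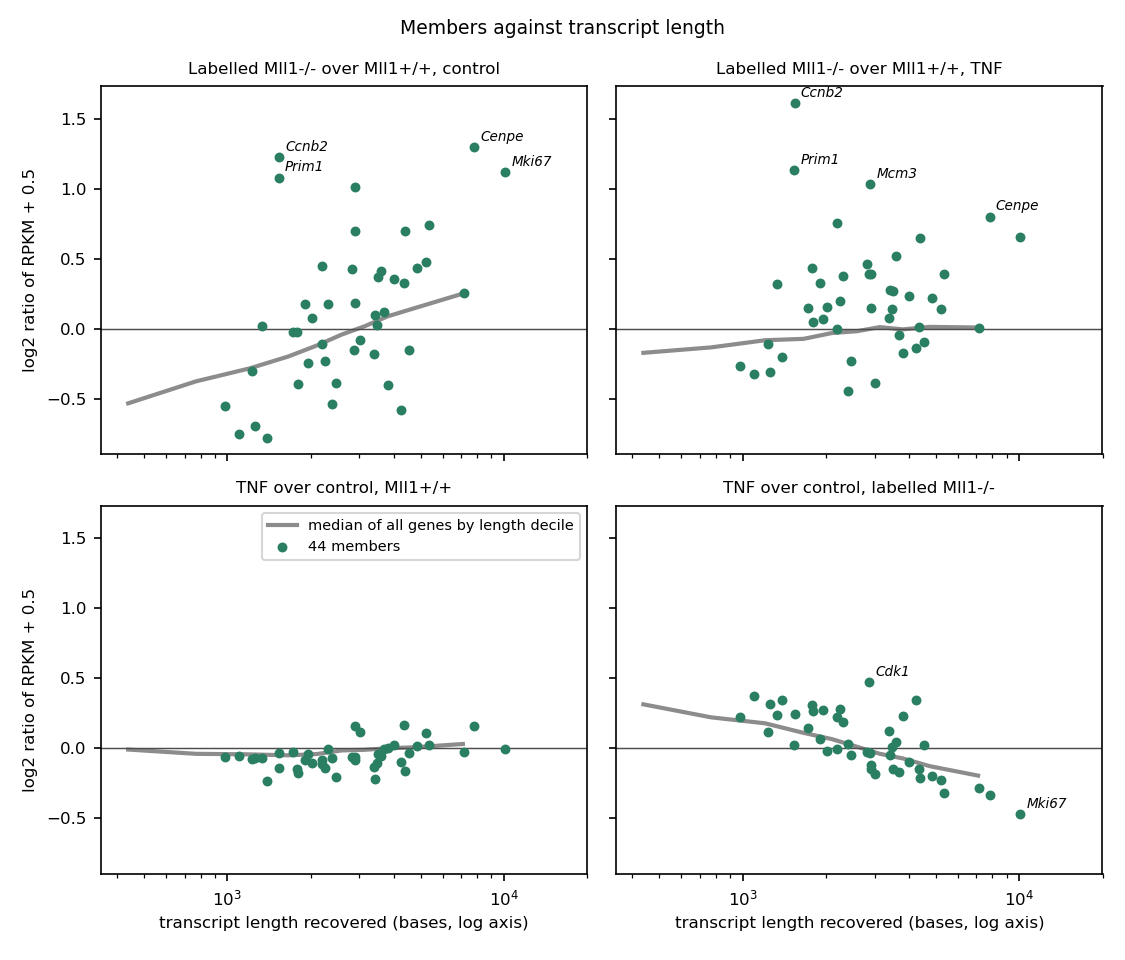
Log2 ratios of RPKM + 0.5 for the 44 genes (green points) against recovered transcript length in bases on a log axis, in 4 panels, with the median of all genes in each length decile as a grey line. Points and line slope upward for the genotype ratio without TNF and downward for TNF in the cells labelled Mll1-/-, while both stay near 0 for TNF in wild type. In that last panel the points still rise slightly with length (Spearman's rho 0.47).

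Other genes of the same processes, in 9 lists, are given beside the shares of all genes: without TNF 45.0% lay above 0, 7.11% were 2-fold higher and 7.99% 2-fold lower, and with TNF 45.1%, 6.71% and 4.5%. When scaling ignored the 20 most abundant genes, list medians moved up along with that of all genes, by 0.28 without TNF and 0.10 with TNF. The spindle and cytokinesis list was the most uniform: all 24 genes compared lay above 0 in both pairs, with 4 past 2-fold higher and 0 lower without TNF, 0 and 0 with TNF, and medians of 0.59 and 0.44. Aspm, which organises spindle poles, was highest at 3.99 and 4.27 RPKM in wild type and 9.88 and 7.74 in the libraries labelled Mll1-/- (1.21 and 0.79), followed by Cit, the citron kinase of cytokinesis (1.10 and 0.85), and the kinesins Kif18a (1.06 and 0.89) and Kif4 (1.016 and 0.89). Kif18b (0.06 and 0.21) and Tacc3 (0.17 and 0.22) were lowest. With the length trend removed 23 of 24 lay above 0 without TNF and 24 with TNF, with 0 past 2-fold and medians of 0.43 and 0.39, and all 24 lay above 0 under every other scaling tried.

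The genes of nucleotide synthesis lay mostly below 0, as did most genes in both pairs. Of 13 genes of nucleotide synthesis, 12 lay below 0 without TNF and 10 with TNF, with 0 past 2-fold and medians of -0.29 and -0.21. Dut, which removes dUTP, was lowest at 63.6, 60.5, 34.8 and 44.04 RPKM (-0.86 and -0.45), with Dctpp1 next (-0.62 and -0.22), and Ctps (0.10 and 0.05) and Paics (-0.07 and -0.10) were highest. When scaling ignored the 20 most abundant genes, this median was 0.01 without TNF, which is -0.20 relative to the median of all genes in that scaling, against -0.22 before. Of 38 further origin and replisome genes, 1 was past 2-fold lower and 0 higher without TNF, with a median of -0.17, and 0 were past it with TNF, with a median of -0.01. Rpa3, a subunit of the single-strand binding protein, was lowest (27.8, 31.5, 11.02 and 15.7 RPKM, at -1.29 and -0.99, or just under 2-fold without TNF once the length trend was removed, when 0 of the 38 were past it) and Pole2 next (-0.96 and -0.52), while Ticrr (0.52 and 0.26) and Clspn (0.47 and 0.31) were highest.

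Of 20 genes for E2F, retinoblastoma and DREAM proteins, 3 (E2f6, E2f2 and Rb1) were 2-fold lower in both pairs, where 7.99% and 4.5% of all genes were, and 0 were higher, and the median was -0.12 without TNF and -0.13 with TNF. Rb1, the retinoblastoma protein gene, stood at 4.68 and 4.79 RPKM in wild type and 2.05 and 1.95 in the libraries labelled Mll1-/- (-1.02 and -1.11), and E2f6, a repressor, at 1.90, 1.64, 0.428 and 0.360 RPKM (-1.37 and -1.31). E2f2, an activator, was at -1.07 and -1.19. Lin9 (0.51 and 0.26) and Hcfc1 (0.38 and 0.16) were highest. The 3 lower genes were expressed at low levels, and their call depended on the settings: 3 were past 2-fold in both pairs with the length trend removed, but 1 without TNF and 0 with TNF were with a pseudocount of 1, and 1 and 3 when scaling ignored the 20 most abundant genes.

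Among chromosome genes the lists were mixed. Of 19 cohesin and condensin genes, 1 was past 2-fold higher in each pair and 0 lower, with medians of 0.23 and 0.03, or 0.08 and -0.04 with the length trend removed: Smc2, a condensin subunit, without TNF (35.7 and 39.5 RPKM in wild type, 86.4 and 74.5 in the others, 1.26 and 0.91), and Pttg1, the securin gene, with TNF (0.57 and 1.19). Sgo2a was the next highest without TNF (0.86), and Ncapd3 (-0.20) and Ncaph2 (-0.18) were lowest. Of 33 centromere and kinetochore genes 3 were higher and 0 lower without TNF and 2 higher and 0 lower with TNF, with medians of -0.08 and -0.05. Without TNF 2 were higher with the length trend removed, and 5 were with median-ratio or upper-quartile scaling. Ska1, which ties kinetochores to microtubules, was highest at 1.98, 1.96, 8.87 and 8.81 RPKM (1.92 in both pairs), followed by Cenpf (1.29 and 0.81) and Zw10 (1.06 and 1.10), and Cenpm (-0.93 and -0.51) and Cenpw (-0.90 and -0.49) were lowest.

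The 3 remaining lists concern control of the cycle. Of 15 further cell cycle kinases, phosphatases and their partners 0 were past 2-fold in either pair, with medians of 0.21 and 0.18, or 0.08 and 0.14 with the length trend removed, from Melk (0.84 and 0.78) and Nek2 (0.62 and 0.60) to Cks1b (-0.60 and 0.02) and Cks2 (-0.54 and 0.02). Of 16 genes of the anaphase-promoting complex and its partners 2 were past 2-fold lower without TNF and 0 with TNF (medians -0.13 and -0.15), Anapc13 (-1.60 and -0.61) and Anapc11 (-1.30 and -0.81), while the inhibitor Fbxo5 (0.65 in both pairs) and Anapc5 (0.10 and 0.06) were highest. Of 11 Cdk inhibitor and D cyclin genes compared 1 was higher and 1 lower without TNF, and 1 higher and 0 lower with TNF (medians -0.50 and -0.14). The lower call, Cdkn2a, was lost with the length trend removed, with each of the 3 other scalings and with the mean of all entries, and 2 rather than 1 were higher with TNF with the length trend removed, with median-ratio scaling, with a pseudocount of 0.1 and when scaling ignored the 20 most abundant genes. Cdkn2b, which inhibits the kinases of D cyclins, stood at 3.42, 3.77, 9.54 and 10.4 RPKM (1.36 and 1.35), and Cdkn2d was next (0.57 and 0.97). Cdkn2a went from 35.9 and 34.8 RPKM in wild type to 17.1 in the Mll1-/- control and 34.2 with TNF (-1.05 and -0.02), and Cdkn1a, which encodes the inhibitor p21, stood at 126, 121, 68.1 and 75.3 RPKM (-0.89 and -0.68).

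**Figure D4:**
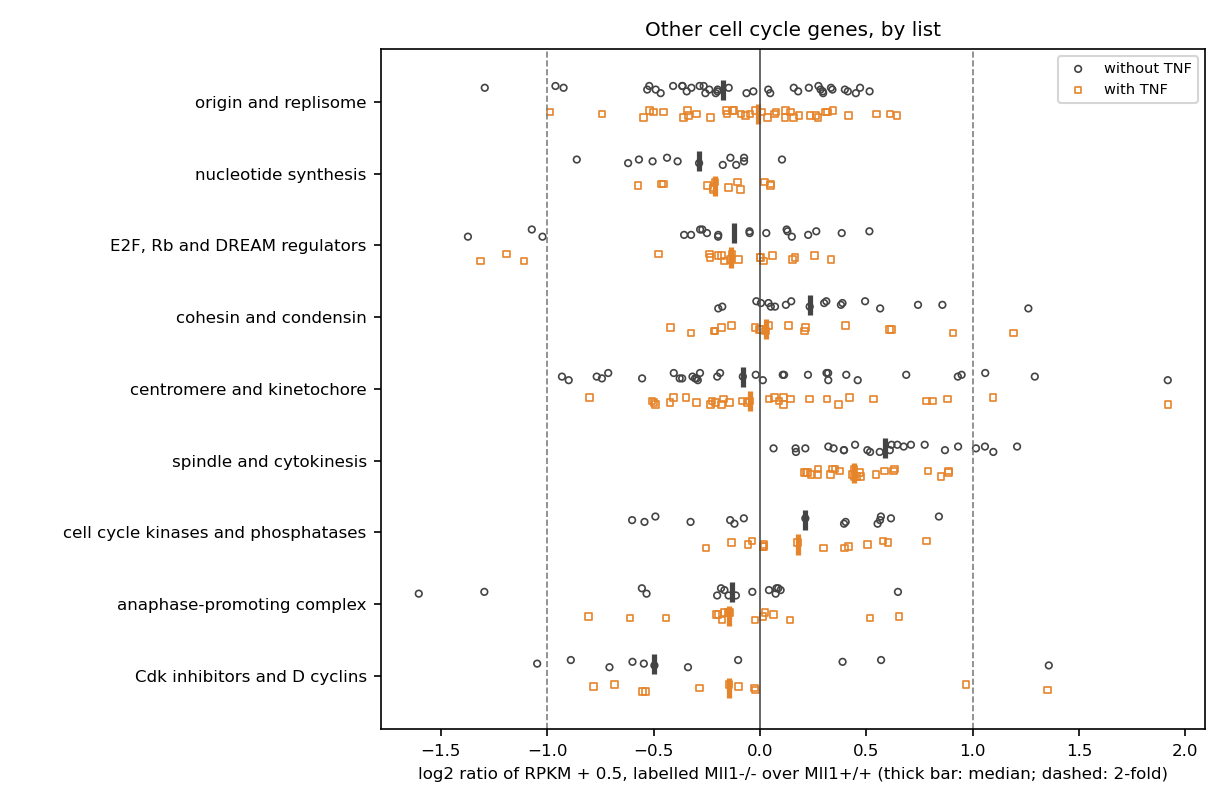
Log2 ratio of RPKM + 0.5, labelled Mll1-/- over Mll1+/+, for the genes of 9 further cell cycle lists (circles, without TNF; squares, with TNF), with each list's median as a thick bar and 2-fold as dashed lines. All spindle and cytokinesis genes lie to the right of 0 in both pairs, and most nucleotide synthesis genes lie to the left.

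Promoter windows of RefSeq on GRCm38.p6, from 250 bases before to 50 after the start, were found for 35 of the 44 members and searched on both strands for 3 motifs. An E2F motif (TTTCCCGC, TTTGGCGC, TTTCGCGC or TTTGCCGC, which can overlap one another) was present in 8 of the 35 (22.9%), against 2.6% of 27025 genes. It was present in 7 of 17 members of the licensing, replisome and nucleotide roles (41.2%) and in 1 of 17 members of the cyclin, kinase and chromosome roles (5.88%). The CHR element TTTGAA was present in 13 of the 35 (37.1%, against 20.2% of all genes), in 2 of the 17 former (11.8%) and 11 of the 17 latter (64.7%). CCAAT was present in 26 of the 35 (74.3%, against 41.1%). For all 3 motifs the 27025 genes were not filtered by their level in these cells, while all 35 members were expressed. The shares are therefore not matched for expression.

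Of the promoters shown above, that of Mcm3 holds both of its E2F matches after the start, at bases 20 and 39, and that of Ccnb2 holds TTTGAA at base 5 after the start and again 167 bases before it, outside the printed stretch. Neither the E2F letters searched nor TTTGAA were found in the windows of Prim1 and Ccnb1. The similar run TTTAAA, which the printed stretch of Ccnb1 holds, was not among the letters searched, so these windows are not shown to lack a CHR element. A match describes the letters of a window and not a bound site, and a missing match says only that these letters are not in this window.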

How the data were processed

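Libraries of mRNA from MEFs were sequenced, 1 per group, and the authors deposited 1 RPKM value per transcript entry and library (27344 entries), a unit given by the name of the deposited table. The submitters' processing notes name TopHat and DESeq without a role or version. Build, annotation and counter were not given in the sources used here, nor was strand, so overlapping antisense reads cannot be separated.

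Whole reads were recovered from the RPKM steps: a single length gave whole reads in all 4 libraries, within 0.0001 reads, for 99.99% of entries, and 79.0% of lengths lay within 10% of GENCODE M21. Of the entries 20849 were named by RefSeq, 102 by GENCODE, and 6393 stayed unnamed. Genes with at least 1 RPKM in 1 library were compared on log2(RPKM + 0.5), which understates changes of low genes. The 95% Clopper-Pearson intervals hold counting error alone: reads carry no molecular identifiers and may copy the same molecule. The length trend was a line through the medians of 20 length bins, subtracted with the overall median kept. Scripts used Python 3.11.15, numpy 2.4.6, pandas 2.3.3 and scipy 1.17.1, and were tested on simulated data.

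Members and lists were chosen with earlier results of these data known. Named genes are all members past 2-fold, the 2 highest and 2 lowest of each role and list by the genotype ratio without TNF, and the 3 highest and 3 lowest for TNF. Other members are named to account for all 44, and Kif18a, Kif4, Zw10 and Pttg1 were named after their values were seen. Alternatives tried were the pseudocount, filter, scaling, length trend and choice of entry.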

Additional observations from a re-analysis of the deposited data

How the results depend on the processing

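Across 873 recomputed values, 741 moved by less than the half-width of the counting interval (for medians, the median half-width over members) or, for counts, by at most 1.5 times, and 132 moved by more. No member past 2-fold changed direction. The count of members past 2-fold without TNF, 5, became 2 with the length trend removed. The median genotype ratio without TNF (0.09) was 0.16 with median-ratio scaling, 0.19 with upper-quartile scaling and 0.38 when the 20 most abundant genes were ignored, which shifts the median of all genes by 0.28. With TNF (0.15) it was 0.26 under that last scaling. Under it the median TNF ratio in the cells labelled Mll1-/- went from 0.02 to -0.14 (-0.0057 with median-ratio and -0.06 with upper-quartile scaling) and the median difference in response from 0.11 to -0.078, and 16 rather than 8 members were 1.5-fold higher and 0 rather than 3 lower without TNF. The median of all genes moved alongside in each case: without TNF by 0.07 with median-ratio and 0.10 with upper-quartile scaling, and under the last scaling by 0.10 with TNF, -0.15 for TNF in the cells labelled Mll1-/- and -0.17 for the difference in response. Pseudocount, filter and choice of entry moved none of the counts of members past 2-fold. No paired analysis was possible because each group is 1 library. The fewest reads of any member in a library were 390, and the spread between cultures was not measured.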

Other observations

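Ratios between members within a library need no scaling between libraries. They were chosen after the values were seen and are given as values only. The length trend was not removed from them, and the genes compared differ in length, such as Ccnb1 (2316 bases) and Ccnb2 (1541 bases). Ccnb1 exceeded Ccnb2 by 6.73 and 7.42 times in RPKM in the wild-type libraries (control, then TNF) and by 3.20 and 3.08 times in those labelled Mll1-/-. Mcm3 was 0.926 and 0.935 times the median of the other 5 ring subunits in wild type and 1.91 and 1.83 times in the others. Mcm7 was 1.54 and 1.53 times the median of its 5 partners in wild type and 0.853 and 0.946 times in the others. The highest of the 6 subunits exceeded the lowest by 1.82 and 1.90 times in wild type and by 2.71 and 2.43 times in the others. The proteins of this ring are present in equal number in each loaded helicase, and transcript levels say nothing about their protein levels.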
